A study of Mus musculus with 16 samples.

Results

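The transgene effect was read in the quadriceps of male mice that carry an additional Ant1 gene (genotype ANT1(Tg)/+, called Tg here) and of wild-type (WT) males. The 8 libraries, 4 per genotype, were chosen by genotype and sex alone from the 16 libraries of the series, which also holds 4 WT and 4 Tg females. All 8 mice were C57BL/6, 6 months old and fed regular chow, and age-matched or, where possible, littermate controls were used. The sources used here do not give the promoter that drives the transgene or the number of founder lines. RNA of snap-frozen muscle was made into stranded poly(A) libraries, and values for 19108 genes were analysed, with totals of 19259827 to 27189286 counts per library. Replicates are numbered in accession order only (WT 1 to WT 4, Tg 1 to Tg 4), and no number links a Tg mouse to a WT mouse.

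Ant1 is the older name of Slc25a4, the main adenine nucleotide translocase of striated muscle, a carrier of the inner mitochondrial membrane that exports ATP from the matrix in exchange for ADP. A carrier made in excess must pass the import machinery of the mitochondrion, and the series title places the study on proteostasis, mitochondrial stress and muscle wasting. Cells with stressed mitochondria are known to use the integrated stress response, in which phosphorylated eIF2 slows general translation while the transcription factor ATF4 is made. ATF4 pairs with C/EBP proteins on composite elements and switches on genes for amino acid synthesis, amino acid uptake and tRNA charging, and in muscle also the hormones FGF21 and GDF15.

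The promoters of 7 genes that rose in Tg males and belong to these classes are shown because each holds the core of such a composite element, written here as TGATGNAA, where N is any base. The core was searched on both strands of RefSeq promoter sequences (GRCm38.p6), which run from 250 bases before to 50 bases after each gene's start. The windows below read 5′ to 3′ along the gene's own strand, and the capitals mark each match, which reads TTNCATCA where it lies on the opposite strand. They come from the hormone gene Fgf21 (chr7:45615586-45615665, minus strand), the asparagine synthetase gene Asns (chr6:7693189-7693268, minus strand), the pseudokinase gene Trib3 (chr2:152344011-152344082, minus strand), the cystine carrier gene Slc7a11 (chr3:50443617-50443715, minus strand), the mitochondrial carboxykinase gene Pck2 (chr14:55540127-55540206, plus strand), the proline synthesis gene Pycr1 (chr11:120643808-120643887, minus strand) and the glycyl-tRNA synthetase gene Gars (chr6:55037935-55038014, plus strand).
Fgf21: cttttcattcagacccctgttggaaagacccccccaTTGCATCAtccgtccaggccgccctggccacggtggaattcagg
Asns: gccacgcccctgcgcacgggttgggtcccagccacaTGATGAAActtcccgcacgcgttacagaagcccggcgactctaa
Trib3: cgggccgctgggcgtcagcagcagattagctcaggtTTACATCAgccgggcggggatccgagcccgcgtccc
Slc7a11: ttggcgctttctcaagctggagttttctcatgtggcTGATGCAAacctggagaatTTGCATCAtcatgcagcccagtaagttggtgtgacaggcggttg
Pck2: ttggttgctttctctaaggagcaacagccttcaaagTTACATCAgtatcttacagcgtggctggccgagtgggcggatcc
Pycr1: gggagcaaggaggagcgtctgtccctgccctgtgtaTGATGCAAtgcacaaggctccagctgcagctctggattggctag
Gars: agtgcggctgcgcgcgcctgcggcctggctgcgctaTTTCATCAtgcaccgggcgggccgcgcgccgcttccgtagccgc

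Slc7a11 holds the core on both strands within one window, and the other 6 windows hold it once. Among the other genes named here the core was also in the promoters of Iars, Chchd10 and Herpud1, which rose, and of Phkg1 and Polk, which fell. For Phkg1 (chr5:129879052-129879131) and Polk (chr13:96519138-96519203) the window lies well inside the gene as GENCODE M21 places it. Those spans are 129863421 to 129898549 and 96480690 to 96542579, both on the minus strand. The core was present in 1304 of 32851 RefSeq promoters (3.97%) and in 232 of 10450 promoters of tested genes (2.22%). Among genes called higher in Tg males it was in 47 of 1217 promoters (3.86%), among those at least 2-fold higher in 17 of 216 (7.87%) and among those at least 4-fold higher in 10 of 67 (14.9%). Among genes called lower it was in 18 of 1064 promoters (1.69%), and in 2 of 135 (1.48%) of those at least 2-fold lower. These shares describe letters in a window; no binding was measured.

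Slc25a4 itself (chromosome 8, 46206797 to 46211284, minus strand, mm10) was measured first, as the check of the genotype labels. It stood at 3590.4, 3959, 3611 and 3661 CPM in WT 1 to WT 4 and at 10026, 9552, 9151 and 9496 CPM in Tg 1 to Tg 4, where CPM is the count scaled to a common library total, from library sizes adjusted by the trimmed mean of M-values (TMM) method. Every Tg library was above every WT library, and the difference was 2.58-fold (1.37 on the log2 scale, SE 0.073, adjusted p = 2.79e-06). Counts per gene hold the transgene and the endogenous gene together. Slc25a5, the translocase of proliferating and non-muscle cells, was at 57.3, 29.7, 31.4 and 28.5 CPM in WT and 53.8, 45.9, 47.2 and 43.3 CPM in Tg (0.37, SE 0.23, adjusted p = 0.301). The highest WT value of Slc25a5 came from WT 1, and without that library the log2 difference was 0.64 (adjusted p = 0.000887).

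The libraries differed in fat and in slow-fibre RNA, and these differences did not follow the genotype evenly. Summed over 10 adipocyte markers, WT 1 held 2289 CPM and WT 2, WT 3 and WT 4 held 38.9, 141 and 151 CPM, while Tg 1, Tg 2 and Tg 3 held 937, 1049 and 736.8 CPM and Tg 4 held 42.7 CPM. Thus 1 WT and 3 Tg libraries lay above 300 CPM, and 3 WT and 1 Tg library below it. The adipokine gene Adipoq, for example, was at 326, 4.52, 15.3 and 19.2 CPM in WT and 95.3, 90.2, 79.3 and 3.72 CPM in Tg. None of the 10 markers was at 0 in all 8 libraries, and 0 of them were called between the genotypes by edgeR, where 0 had an unadjusted p under 0.05 and DESeq2 called 0. Slow-fibre RNA was low in all libraries: the sum of 15 slow-fibre genes was 197, 255, 104 and 141 CPM in WT and 546, 177, 290 and 353 CPM in Tg, against 255532 to 297086 CPM in WT and 196023 to 249619 CPM in Tg for 17 fast-fibre genes. The slow-fibre sums overlapped, and the fast-fibre sums did not. In bulk RNA, more cells of a type and more RNA per cell cannot be told apart.

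**Figure D1:**
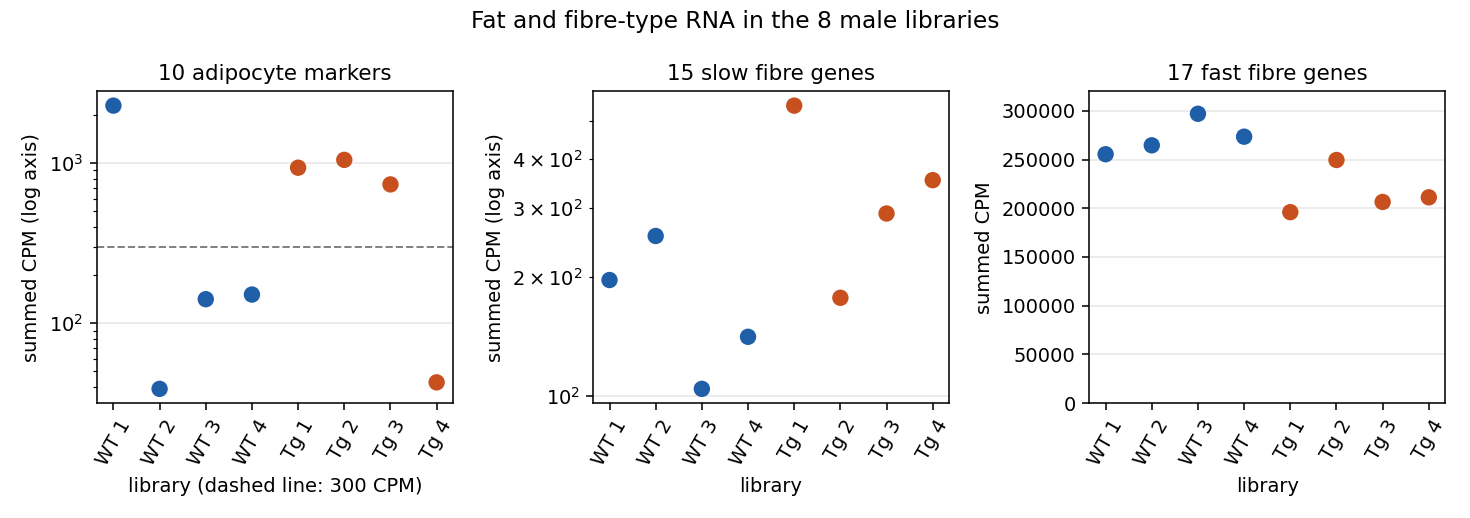
Summed CPM of 10 adipocyte markers (left, log axis), 15 slow-fibre genes (middle, log axis) and 17 fast-fibre genes (right, linear axis) in each male library, WT in blue and Tg in orange. The dashed line at 300 CPM separates WT 1, Tg 1, Tg 2 and Tg 3 above it from WT 2, WT 3, WT 4 and Tg 4 below it.

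Of 13299 tested genes, 2871 (21.6%) were called at an adjusted p under 0.05, 1496 of them higher in Tg (11.2% of those tested) and 1375 lower (10.3%). These shares are the background for the counts of each gene list below. At least a 2-fold change was seen in 281 of the genes called higher and 175 of those called lower, and at least a 4-fold change in 84 and 43. In 3490 genes (26.2%) the 4 Tg libraries did not overlap the 4 WT libraries, and 2690 of these were also called. The median log2 difference over all tested genes was 0.03. Correlations of log2 CPM between libraries of a genotype were 0.961 to 0.991 across genes, and the biological coefficient of variation was 0.183. Myh4, the myosin of fast IIb fibres, held 5.33 to 9.58% of all counts, so RNA of fast skeletal muscle is present in every library. This does not tell the quadriceps from other fast muscles.

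**Figure D2:**
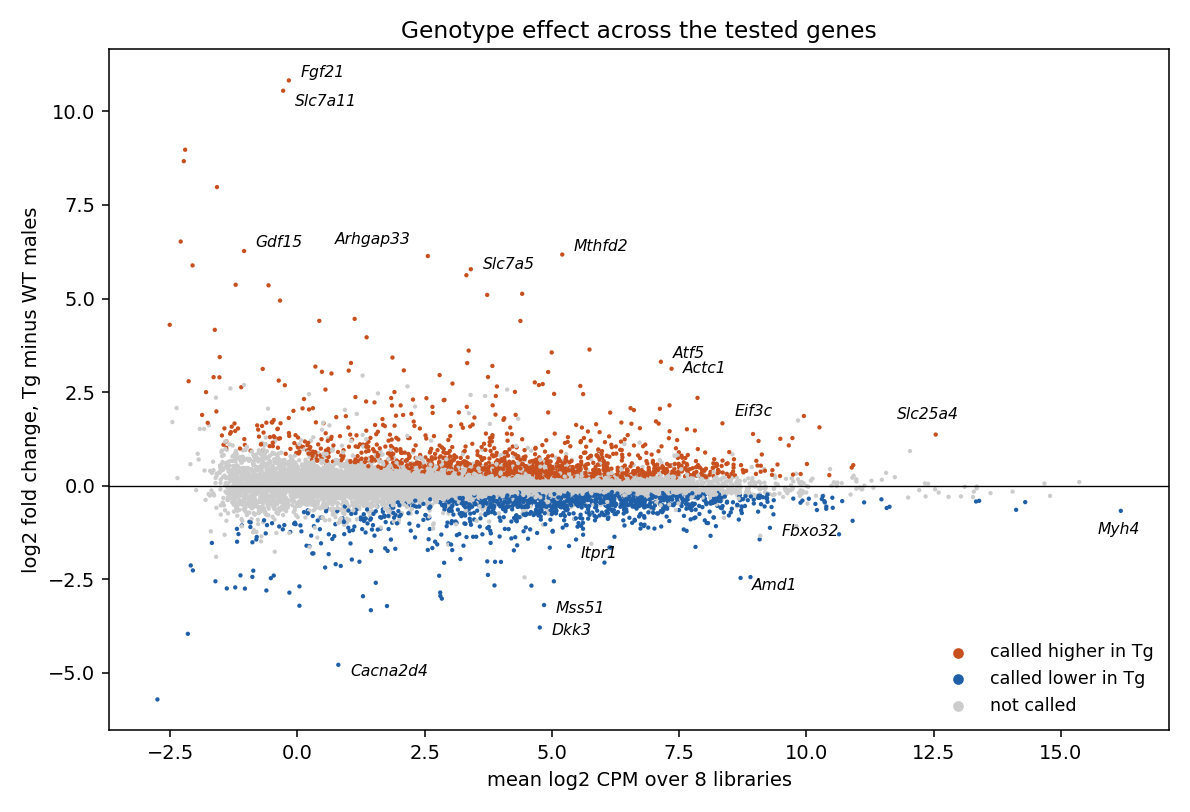
Log2 fold change (Tg minus WT males, vertical) against mean log2 CPM over the 8 libraries (horizontal) for each of the 13299 tested genes, with genes called higher in orange, called lower in blue and not called in grey. Fgf21 and Slc7a11 stand highest, at fitted values of 10.83 and 10.55 that depend on the prior count, and Amd1 at -2.46 is among the lowest of the abundant genes.

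The secreted stress hormones went from near absence to clear expression. Fgf21, a hormone of fasting and of mitochondrial stress in muscle, had 1 count in all 4 WT libraries together and stood at 19.4, 27.4, 25.5 and 44.5 CPM in Tg, a ratio of 2616 (95% counting interval 469 to 103368). Gdf15, which acts on the brainstem to lower food intake, had 5 counts in 2 WT libraries and 5.01, 5.48, 2.77 and 5.11 CPM in Tg, a ratio of 84.3 (35.9 to 261). These intervals cover counting error only, and 3 counts, the limit that a count of 0 allows, corresponded to 0.110 to 0.149 CPM in a library. Both genes were called (adjusted p = 8.75e-06 and 6.48e-05). Igf2, a fetal growth factor, rose from 9.51 to 13.6 to 27.0 to 32.7 CPM (1.38, SE 0.11, adjusted p = 4.28e-05). Of 13 tested genes on the list of secreted factors, 4 were higher and 0 lower (30.8% called, against 21.6% of all tested genes), with a median of 0.29.

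Among the regulators of the ATF4 axis the largest response was in Trib3, a pseudokinase that ATF4 induces and that restrains it. Trib3 was at 1.53, 1.35, 1.65 and 1.18 CPM in WT and 72.2, 53.8, 65.5 and 90.6 CPM in Tg, a 49.3-fold difference (5.62, SE 0.19, adjusted p = 2.4e-07). Atf5, a transcription factor of the mitochondrial unfolded protein response, was at 47.0, 42.7, 42.5 and 47.3 CPM in WT and 430.2, 510.3, 390.0 and 453 CPM in Tg (3.31, SE 0.095, adjusted p = 6.9e-08). In both genes the groups were far apart. The 4 libraries of each genotype lay close together in Atf5, while Trib3 ranged from 53.8 to 90.6 CPM in Tg. Sesn2, an inhibitor of mTORC1 in amino acid shortage, rose from 2.80 to 4.60 to 26.4 to 43.2 CPM (3.28, SE 0.22, adjusted p = 2.68e-05). Ddit3, the gene of the stress factor CHOP, chosen after its values were seen, rose from 5.26 to 10.2 to 26.5 to 36.9 CPM (2.15, SE 0.21, adjusted p = 0.000208). Atf4 itself rose 1.97-fold, from 155 to 179 to 303 to 348 CPM (0.98, SE 0.075, adjusted p = 2.77e-05). Of the 20 list members tested, 10 were higher and 2 lower, with a median of 0.97.

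Enzymes that make serine, one-carbon units, proline and asparagine were the next group. Mthfd2, a mitochondrial folate enzyme of growing cells, was at 4.33, 4.09, 4.41 and 4.45 CPM in WT and 304, 328, 297 and 323 CPM in Tg (6.18, SE 0.074, adjusted p = 4.08e-11). It had the smallest adjusted p among the genes named here. Psat1, of serine synthesis, was at 11.3, 1.49, 2.20 and 2.25 CPM in WT and 144, 146, 144 and 165 CPM in Tg (5.13, SE 0.67, adjusted p = 0.00262). Asns, which makes asparagine, was at 6.49, 1.35, 1.36 and 1.26 CPM in WT and 91.7, 75.2, 87.8 and 100.3 CPM in Tg (5.10, SE 0.57, adjusted p = 0.00124). For both, WT 1, the WT library rich in adipocyte markers, lay above the other WT libraries but far below the Tg libraries, and without it the log2 differences were 6.19 and 6.04. Aldh18a1 and Pycr1, the first and last enzymes of proline synthesis, rose 21.1-fold (from 3.88 to 4.99 to 89.8 to 104 CPM) and 9.18-fold (from 3.88 to 5.85 to 42.4 to 44.2 CPM). Pck2, the mitochondrial phosphoenolpyruvate carboxykinase, rose 7.48-fold, from 4.06 to 5.34 to 35.3 to 38.9 CPM (2.90, SE 0.094, adjusted p = 1.15e-07).

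The first enzyme of serine synthesis, Phgdh, was not called by edgeR, and it is given here after its values were seen. It was at 24.9, 1.83, 2.16 and 1.98 CPM in WT and 34.1, 35.9, 30.05 and 17.4 CPM in Tg (1.94, SE 0.95, adjusted p = 0.216). WT 1 alone overlapped the Tg libraries, and without it the log2 difference was 3.84 (adjusted p = 0.000116). It was called with the adipocyte covariate (2.33, adjusted p = 0.016) and by limma-voom (2.95, adjusted p = 0.0288), but not by DESeq2 (1.91, adjusted p = 0.136) or with the slow-fibre covariate (1.89, adjusted p = 0.442). Within the libraries rich in adipocyte markers, where WT 1 is the only WT library, its log2 difference was 0.42 (adjusted p = 0.21), and within the poor ones it was 3.10 (adjusted p = 0.000178). Of the 21 list members tested, 13 were higher and 1 lower, with a median of 0.90.

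Among carriers that bring amino acids into the fibre, 8 of the 22 tested were higher and 1 lower, with a median of 0.36. Slc7a11, which exchanges cystine for glutamate, had 1 count in all WT libraries together and 23.2, 19.1, 27.4 and 26.7 CPM in Tg, a ratio of 2233 (95% counting interval 400.4 to 88234; adjusted p = 1.15e-07). Slc7a5, the light chain of the large neutral amino acid carrier, was at 1.26, 1.78, 1.65 and 1.07 CPM in WT and 68.8, 82.3, 71.9 and 93.2 CPM in Tg (5.78, SE 0.17, adjusted p = 1.12e-07). Its heavy chain Slc3a2, which Slc7a11 shares, rose less, from 30.5 to 35.7 to 96.6 to 119 CPM (1.64, SE 0.082, adjusted p = 1.62e-06). In both chains every Tg library was above every WT library. Among carriers of cationic amino acids, Slc7a1 rose 12.2-fold (from 2.20 to 3.51 to 23.2 to 52.5 CPM), and Slc7a3, with 9 counts over the 4 WT libraries, reached 3.04 to 4.86 CPM, a ratio of 42.9 (22.4 to 94.5).

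**Figure D3:**
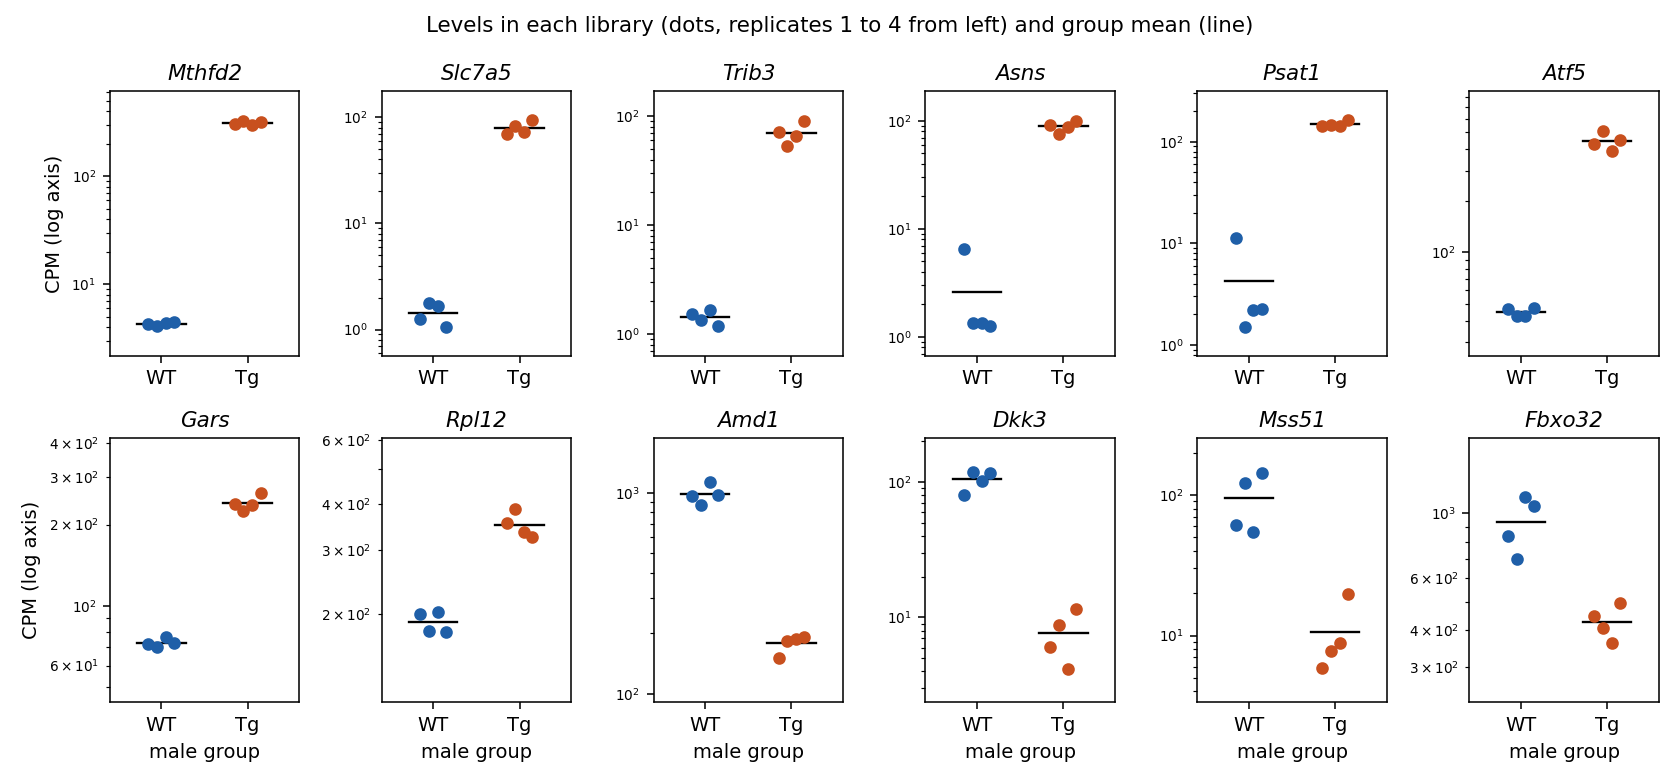
CPM on log axes of 12 genes in each male library, with dots for replicates 1 to 4 from left to right in WT (blue) and Tg (orange) and a line at each group mean. In all 12 genes the groups do not overlap, which the rule that named most of them required and which held for 26.2% of all tested genes. Mthfd2 goes from 4.09 to 4.45 to 297 to 328 CPM, Atf5 from 42.5 to 47.3 to 390.0 to 510.3 CPM and Amd1 from 869 to 1125 down to 151 to 193 CPM.

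The cytosolic aminoacyl-tRNA synthetases, which load amino acids onto tRNAs, were mostly higher: 17 of 20 were called higher and 0 lower, with a median of 0.79. Gars was at 72.2, 70.1, 76.5 and 72.5 CPM in WT and 238, 224, 235 and 261 CPM in Tg (1.72, SE 0.065, adjusted p = 2.4e-07). Sars, Lars and Iars rose 2.41-fold, 2.36-fold and 2.33-fold, and in each the groups did not overlap. Of the 17 synthetases of mitochondria, 3 were higher and 0 lower (17.6% called, against 21.6% of all tested genes), with a median of 0.09. The largest of these changes was in Ears2, the mitochondrial glutamyl-tRNA synthetase, from 8.66 to 10.4 to 13.4 to 17.6 CPM (0.77, SE 0.1, adjusted p = 0.000791).

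Genes of the cytosolic ribosome rose by small amounts. Of 75 ribosomal protein genes tested, 69 were higher and 0 lower, with log2 differences between 0.16 and 0.89 and a median of 0.45, and in 67 the groups did not overlap. Their summed level was 13177 to 14687 CPM in WT and 17878 to 20874 CPM in Tg. Rpl12, of the large subunit, was at 199, 179, 202 and 178 CPM in WT and 355, 389, 336 and 325 CPM in Tg (0.89, SE 0.078, adjusted p = 6.09e-05). Ribosomal protein genes have many processed pseudogenes, and the sources used here do not say how reads shared with them were counted, so single values of this family are uncertain. Of 21 genes of ribosome biogenesis in the nucleolus, 9 were higher, 0 lower and 12 not called, with a median of 0.27. Polr1a, the large subunit of RNA polymerase I, rose 1.55-fold (from 50.3 to 54.5 to 80.3 to 82.3 CPM), and Myc, a driver of ribosome production, rose 3.85-fold (from 2.28 to 4.15 to 11.7 to 14.6 CPM).

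Translation factors moved in both directions, 10 of 45 higher and 3 lower, with a median of 0.14. That is 28.9% called, against 21.6% of all tested genes. One of them stood apart: Eif3c, which codes for part of the initiation complex eIF3, was at 189, 183, 181 and 179.7 CPM in WT and 571, 596, 565 and 593 CPM in Tg (1.67, SE 0.057, adjusted p = 1.33e-07). The libraries of each genotype lay close together. The other factors named by the rule changed less, at 1.39-fold for Eif2s2, the beta subunit of eIF2, and 1.38-fold for Eef1b2, of the elongation factor eEF1B. The mitochondrial ribosome had 15 of 77 protein genes higher and 3 lower (23.4% called, near the 21.6% of all tested genes), with a median of 0.11. With another scaling, DESeq2's size factors, the numbers were 9 and 6. Mrps18b rose 1.41-fold and Mrpl18 fell by 0.41 on the log2 scale (SE 0.067, adjusted p = 0.00252).

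In mitochondrial protein quality control, 9 of 18 genes of chaperones and proteases were higher and 1 lower, with a median of 0.24. Hspa9, the Hsp70 that pulls precursors into the matrix, was at 466, 512, 433 and 451 CPM in WT and 1222, 971, 1106 and 1143 CPM in Tg (1.25, SE 0.088, adjusted p = 1.8e-05). Chchd10, of the intermembrane space, was at 327, 339.7, 380.2 and 370.1 CPM in WT and 785, 974, 673 and 812 CPM in Tg (1.196, SE 0.11, adjusted p = 9.1e-05). Every Tg library was above every WT library in both genes. The matrix protease gene Lonp1 rose 1.53-fold and Dnaja3, a partner of Hspa9, 1.498-fold. In the import machinery 4 of 26 genes were higher and 2 lower, a share called (23.1%) near that over all tested genes, and their median was 0.03 and turned to -0.000815 with DESeq2's size factors. Timm10, a chaperone of carrier precursors such as the translocase, rose from 11.7 to 13.7 to 16.7 to 22.6 CPM (0.66, SE 0.1, adjusted p = 0.00159), and Timm8a1, of the same compartment, rose 1.89-fold.

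The endoplasmic reticulum list had 6 of 22 genes higher and 1 lower (31.8% called), with a median of 0.19. Its sensor gene Ern1 rose from 6.93 to 8.13 to 22.3 to 31.4 CPM (1.90, SE 0.12, adjusted p = 8.75e-06), with Tg 2 below the other Tg libraries. Atf6, another sensor, rose 1.90-fold and Herpud1, of protein disposal at that membrane, 2.00-fold, while Dnajc3, a chaperone that inhibits eIF2 kinases, fell by 0.47 on the log2 scale (SE 0.075, adjusted p = 0.00204). Small heat shock proteins of muscle were higher in 3 of 7 cases and lower in 0. Hspb7, which protects the sarcomere, was at 125, 175, 51.8 and 94.2 CPM in WT and 725.2, 288, 522 and 729.6 CPM in Tg (2.35, SE 0.45, adjusted p = 0.0109), a wide spread in both genotypes without overlap. Hspb6 rose 2.11-fold and Hspb1 1.59-fold. The cytosolic heat shock list had 2 of 12 higher and 0 lower, or 1 and 1 with DESeq2's size factors. Its share called in the main fit was 16.7%, against 21.6% of all tested genes.

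Among redox genes, 8 of 21 were higher and 1 lower, or 5 and 1 with DESeq2's size factors, with a median of 0.19. Srxn1, which repairs peroxiredoxins, rose from 24.6 to 32.7 to 67.6 to 97.9 CPM (1.55, SE 0.12, adjusted p = 3.5e-05), and Cth, which makes cysteine, from 1.67 to 2.20 to 6.04 to 12.2 CPM (2.15, SE 0.26, adjusted p = 0.000436). Gsr, glutathione reductase, rose 1.36-fold. Me1, the cytosolic malic enzyme and also a known NRF2 target, fell from 424 to 486 to 271 to 302 CPM (-0.71, SE 0.07, adjusted p = 0.000134). Of 4 tested members of the metallothionein list, 3 were higher. They were Mt2 and Mt1, which code for small metal-binding proteins, and a zinc transporter gene, which is no metallothionein. Mt2 was at 3.24, 3.42, 3.09 and 3.23 CPM in WT and 28.4, 23.6, 14.3 and 19.9 CPM in Tg (2.73, SE 0.2, adjusted p = 2.68e-05), and Mt1 rose 4.31-fold.

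Genes of protein breakdown were called in both directions. Shares called were 29.4% for atrophy genes, 26.5% for proteasome subunits and 32% for autophagy, against 21.6% of all tested genes. Of 17 genes of muscle atrophy, 2 were higher and 3 lower, or 0 and 5 with DESeq2's size factors, with a median of -0.08. Fbxo32, the ubiquitin ligase atrogin-1 that marks atrophying muscle, was at 837, 699, 1131 and 1054 CPM in WT and 445, 406, 360.2 and 496 CPM in Tg (-1.12, SE 0.16, adjusted p = 0.00124). The level was thus lower in every Tg library. Trim63, the ligase MuRF1, fell from 388 to 610.0 to 192 to 368 CPM (-0.79, SE 0.21, adjusted p = 0.0288), a call that was lost without WT 3, WT 4, Tg 1 or Tg 4 (adjusted p up to 0.0738). Of 34 proteasome subunits 8 were higher and 1 lower, or 3 and 3 with DESeq2's size factors, and the largest named change was in Psmd11, at 1.29-fold. Among 25 autophagy genes 4 were higher and 4 lower, or 2 and 4 with DESeq2's size factors: Map1lc3a, an LC3 gene, rose 1.68-fold, and the kinase gene Ulk2 fell by 0.52 on the log2 scale (SE 0.073, adjusted p = 0.000979).

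In the contractile apparatus, 8 of 17 fast-fibre genes were lower and 0 higher, with a median of -0.30. Myh4 was at 88769, 90968, 102999 and 92482 CPM in WT and 50070.1, 72338, 55712 and 57531 CPM in Tg (-0.67, SE 0.12, adjusted p = 0.00421), and the groups did not overlap. Tpm1, a tropomyosin, fell by 0.64, Casq1, the calcium store protein of fast fibres, by 0.56 and Myoz1 by 0.44 on the log2 scale. The slow-fibre list had 2 of 15 genes higher and 0 lower, with a median of 1.196 and a range from -1.26 to 2.65. Its share called was 13.3%, against 21.6% of all tested genes. Casq2, the slow and cardiac counterpart of Casq1, was at 9.51, 11.6, 7.46 and 8.53 CPM in WT and 45.0, 18.02, 26.5 and 40.0 CPM in Tg (1.80, SE 0.3, adjusted p = 0.00451). Myoz2 was at 9.87, 13.8, 2.42 and 3.31 CPM in WT and 72.3, 15.3, 41.5 and 53.8 CPM in Tg (2.65, SE 0.71, adjusted p = 0.041), and its call held only without WT 2 or Tg 2 among the fits that left out 1 library. The slow myosin Myh7 was at 0.631, 7.51, 0.381 and 0.875 CPM in WT and 9.43, 0.984, 2.57 and 8.18 CPM in Tg (1.196, SE 1.1, adjusted p = 0.523), with WT 2 inside the Tg range.

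Denervation and junction genes were mostly higher: 12 of 21, with 2 lower and a median of 0.64. Gadd45a, which rises in denervated and starved muscle, was at 11.9, 15.2, 16.1 and 17.8 CPM in WT and 161, 199.98, 173 and 226 CPM in Tg (3.64, SE 0.15, adjusted p = 7.1e-07). Ankrd1, a titin-binding protein of stretched muscle, was at 6.76, 15.2, 6.91 and 10.4 CPM in WT and 80.7, 80.3, 129.8 and 171 CPM in Tg (3.56, SE 0.39, adjusted p = 0.000847). Both were apart in all libraries. Chrnb1, an acetylcholine receptor subunit, rose 2.08-fold, and Cdkn1a, the cell cycle inhibitor p21, rose 5.48-fold, from 12.6 to 16.5 to 64.8 to 87.2 CPM. Myogenic factors moved both ways, 2 of 13 higher and 4 lower. Actc1, the actin of heart and of developing muscle, was at 34.3, 27.8, 106 and 89.8 CPM in WT and 494, 662, 914 and 184 CPM in Tg (3.13, SE 0.67, adjusted p = 0.019), with Tg 4 nearest to WT. Myog, which is active in denervated fibres, rose 2.35-fold (from 2.32 to 2.84 to 4.49 to 7.93 CPM), while Mef2a fell by 0.50 and the perinatal myosin Myh8 by 0.60 on the log2 scale.

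In energy metabolism, the complex I list had 0 of 37 genes higher and 4 lower, with a list median of -0.08. Among the lower genes were Ndufa4, Ndufc1 and Ndufv3, with log2 differences of -0.29, -0.31 and -0.30. Ndufa4 is on that list although its protein is now counted as a subunit of complex IV. Of 38 genes of complexes II to V, 2 were higher and 6 lower. Cox6a2, the muscle form of a cytochrome oxidase subunit, was at 498, 564, 579 and 540.1 CPM in WT and 1246, 1454, 1184 and 1384 CPM in Tg (1.27, SE 0.087, adjusted p = 1.5e-05). Cox8b and Cox7a1, also muscle forms, fell by 0.61 and 0.40 on the log2 scale, so subunits of one complex went in opposite directions. In the citric acid cycle, 2 of 23 genes were higher and 1 lower, and Idh2 rose from 75.4 to 135 to 169.7 to 249 CPM (1.05, SE 0.21, adjusted p = 0.00987). In fatty acid oxidation, 2 of 22 were higher and 0 lower, or 1 and 1 with DESeq2's size factors. The complex I list had 10.8% of its genes called and complexes II to V 21.1%. The citric acid cycle had 13% and fatty acid oxidation 9.09%, against 21.6% of all tested genes. Acot2, a mitochondrial acyl-CoA thioesterase, was at 14.2, 11.9, 9.62 and 7.27 CPM in WT and 72.8, 62.5, 62.1 and 79.2 CPM in Tg (2.69, SE 0.2, adjusted p = 5.17e-05).

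Of 18 genes of glycolysis and glycogen, 1 was higher and 4 were lower (27.8% called, against 21.6% of all tested genes). The glycogen branching enzyme gene Gbe1 rose from 33.8 to 55.4 to 108 to 174 CPM (1.69, SE 0.19, adjusted p = 0.000489), while glycogen synthase, Gys1, fell by 0.35 and the phosphorylase kinase subunit Phkg1 by 0.49 on the log2 scale. In branched-chain amino acid breakdown 1 of 20 was higher and 2 lower (15% called), with Pcca, of propionyl-CoA carboxylase, down by 0.56 and Acadsb by 0.36. Of 15 regulators of mitochondrial biogenesis, 3 were higher and 1 lower (26.7% called). Esrrg, a nuclear receptor of oxidative fibres, was at 11.7, 18.2, 6.65 and 9.59 CPM in WT and 98.5, 58.9, 60.1 and 84.5 CPM in Tg (2.72, SE 0.33, adjusted p = 0.00125), and Pprc1 rose 1.44-fold.

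Polyamine genes fell more often than they rose, 5 of 11 against 2, with a median of -0.19. The strongest was Amd1, which makes the aminopropyl donor for spermidine and spermine. Amd1 was at 963, 869, 1125 and 980.2 CPM in WT and 151, 183, 188 and 193 CPM in Tg (-2.46, SE 0.11, adjusted p = 6.83e-07), with no overlap. Amd2 (chromosome 10, 35708675 to 35711892) had almost the same values, from 988 to 1277 down to 174 to 222 CPM. It is nearly identical to Amd1 (chromosome 10, 40287458 to 40302186), and the counting may have assigned the same reads to both, so which copy fell is uncertain. Sms, spermine synthase, fell by 0.54 (SE 0.086, adjusted p = 0.00204) and Oaz1, antizyme, by 0.58 on the log2 scale (SE 0.13, adjusted p = 0.0106), while Srm, spermidine synthase, rose 1.65-fold. Smox, spermine oxidase, given here after its values were seen, went from 288 to 531 to 152 to 261 CPM (-0.998, SE 0.24, adjusted p = 0.0207), a call that was lost without WT 4, Tg 1 or Tg 3 (adjusted p up to 0.0571). In the sterol list 3 of 19 genes were higher and 0 lower, or 3 and 1 with DESeq2's size factors. The main fit called 15.8% of that list, against 21.6% of all tested genes. Soat2, which esterifies cholesterol, rose from 0.381 to 0.578 to 9.22 to 12.1 CPM (4.46, SE 0.17, adjusted p = 2.4e-07), and Soat1 rose 2.26-fold.

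Other large increases among genes whose mean log2 CPM was 1 or more fell outside these lists. Arhgap33, a GTPase-activating protein, was at 0.451, 0.770, 0.763 and 0.875 CPM in WT and 66.3, 29.1, 49.5 and 58.9 CPM in Tg (6.14, SE 0.34, adjusted p = 1.8e-05). Trim66, a chromatin-binding tripartite motif protein, rose 15.6-fold (from 0.496 to 0.818 to 5.52 to 13.8 CPM), and Kcnk5, a potassium leak channel, 10.7-fold (from 0.541 to 1.94 to 10.1 to 14.3 CPM). Both Arhgap33 and Trim66 had their lowest Tg value in Tg 2, still far above WT. Cyb5r1, a cytochrome b5 reductase, rose from 67.2 to 80.1 to 304 to 365 CPM (2.15, SE 0.081, adjusted p = 2.4e-07).

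The largest decreases among genes whose mean log2 CPM was 1 or more, predicted genes and clones left aside, were in genes of varied function. Dkk3, a secreted relative of Wnt inhibitors, was at 79.7, 119, 102 and 117 CPM in WT and 6.03, 8.77, 4.19 and 11.5 CPM in Tg (-3.79, SE 0.32, adjusted p = 0.000201). Mss51, a mitochondrial protein of fast glycolytic fibres, was at 60.6, 122, 54.5 and 144 CPM in WT and 5.88, 7.75, 8.88 and 19.7 CPM in Tg (-3.19, SE 0.53, adjusted p = 0.00646). In both the lowest WT library was well above the highest Tg library. Mettl21c, a lysine methyltransferase of muscle, fell by 2.67 (from 44.7 to 82.0 to 7.24 to 12.5 CPM), and the deubiquitinase gene Otub2 by 2.66 (from 22.5 to 50.4 to 4.73 to 7.24 CPM). Sbk2, a serine kinase gene, fell by 2.55, the transmembrane gene Tmem132b by 3.02, Pld5 by 2.95, the protease gene Htra4 by 2.85 and Gbp10, a guanylate-binding protein, by 3.21, all on the log2 scale. Pld5 and Gbp10 were below 15 CPM in every WT library.

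Lrtm2, a leucine-rich repeat membrane protein gene (chromosome 6, 119315133 to 119330766, minus strand), fell from 6.32 to 12.1 to 0.621 to 1.19 CPM (-3.33, SE 0.29, adjusted p = 6.11e-05). It lies inside the calcium channel subunit gene Cacna2d4 (119236526 to 119352407, plus strand), which went from 7.76 to 9.82 to 0.269 to 0.347 CPM (-4.78, SE 0.16, adjusted p = 1.27e-07) and is named after its values were seen. It is not known whether reads were counted by strand, so the values of the pair are uncertain. Odf3l2, whose family is known from sperm tails, was at 24.2, 17.8, 21.6 and 14.6 CPM in WT and 4.24, 8.26, 1.46 and 0.694 CPM in Tg (-2.41, SE 0.66, adjusted p = 0.0421). Its call was lost in 6 of the 8 fits that left out 1 library (adjusted p up to 0.103).

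The p53 target list had 5 of 14 genes higher and 3 lower. Besides Gadd45a, Cdkn1a and Sesn2, the DNA polymerase gene Polk was called, from 19.3 to 25.6 down to 8.18 to 9.72 CPM (-1.27, SE 0.11, adjusted p = 4.54e-05). Circadian genes were lower in 5 of 16 cases and higher in 2. Hlf, an output factor of the clock, was at 16.4, 24.1, 18.6 and 20.1 CPM in WT and 7.57, 9.80, 9.30 and 9.47 CPM in Tg (-1.13, SE 0.13, adjusted p = 0.000319), and the repressor gene Nr1d1 fell by 0.65, Bhlhe40 by 0.49 and Clock by 0.34 on the log2 scale. The sources used here do not give the time of day at which muscle was taken, and its part in these values was not tested. Immediate early genes were higher in 2 of 15 cases and lower in 1, with Egr2 at 0.674 to 0.837 CPM in WT and 1.16 to 1.64 CPM in Tg (0.88, SE 0.2, adjusted p = 0.0113). Of 16 genes on the interferon list, 1 was higher and 1 lower, Ifit3 rising from 4.38 to 6.39 to 9.77 to 14.4 CPM and Igtp falling by 0.56 on the log2 scale. Immediate early genes had 20% called and the interferon list 12.5%, against 21.6% of all tested genes. These shares cover list members only, and Gbp10 and Iigp1, named elsewhere here, were not on the interferon list.

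Markers of most other cell types were not called between the genotypes. Summed over 12 endothelial markers the level was 415 to 496 CPM in WT and 483 to 495 CPM in Tg, with 0 of 12 called. The 12 macrophage markers summed to 106 to 213 CPM in WT and 109 to 272 CPM in Tg, and the 14 fibroblast and collagen genes to 1171 to 1825 CPM in WT and 1239 to 2157 CPM in Tg, with 0 called in both lists. In each of these 3 lists 1 gene had an unadjusted p under 0.05 by edgeR, and DESeq2 called 0. Red blood cell markers (0 of 7 called) and brown fat markers (0 of 2), with 0 at an unadjusted p under 0.05 and 0 called by DESeq2, gave 94.6 to 166 and 0.381 to 13.9 CPM in WT against 131 to 172 and 0.645 to 3.04 CPM in Tg. Lymphocyte and neutrophil markers stayed between 1.16 and 1.80 CPM in sum and 0 of them passed the filter on low counts. Schwann cell markers had 1 of 9 called (11.1%, against 21.6% of all tested genes). It was the myelin gene Mag, at 0.360 to 0.609 CPM in WT and 0.807 to 1.34 CPM in Tg (1.15, SE 0.27, adjusted p = 0.0137). Satellite cell markers summed to 141 to 154 CPM in WT and 202 to 224 CPM in Tg, which rested on Itga7, an integrin also of muscle fibres (81.0 to 91.5 CPM in WT, 149.9 to 166 CPM in Tg, 0.88, SE 0.062, adjusted p = 1.73e-05), while 3 markers were lower, among them Chodl (-1.16, SE 0.24, adjusted p = 0.00811) and Fgfr4 (-0.89, SE 0.21, adjusted p = 0.0137).

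**Figure D4:**
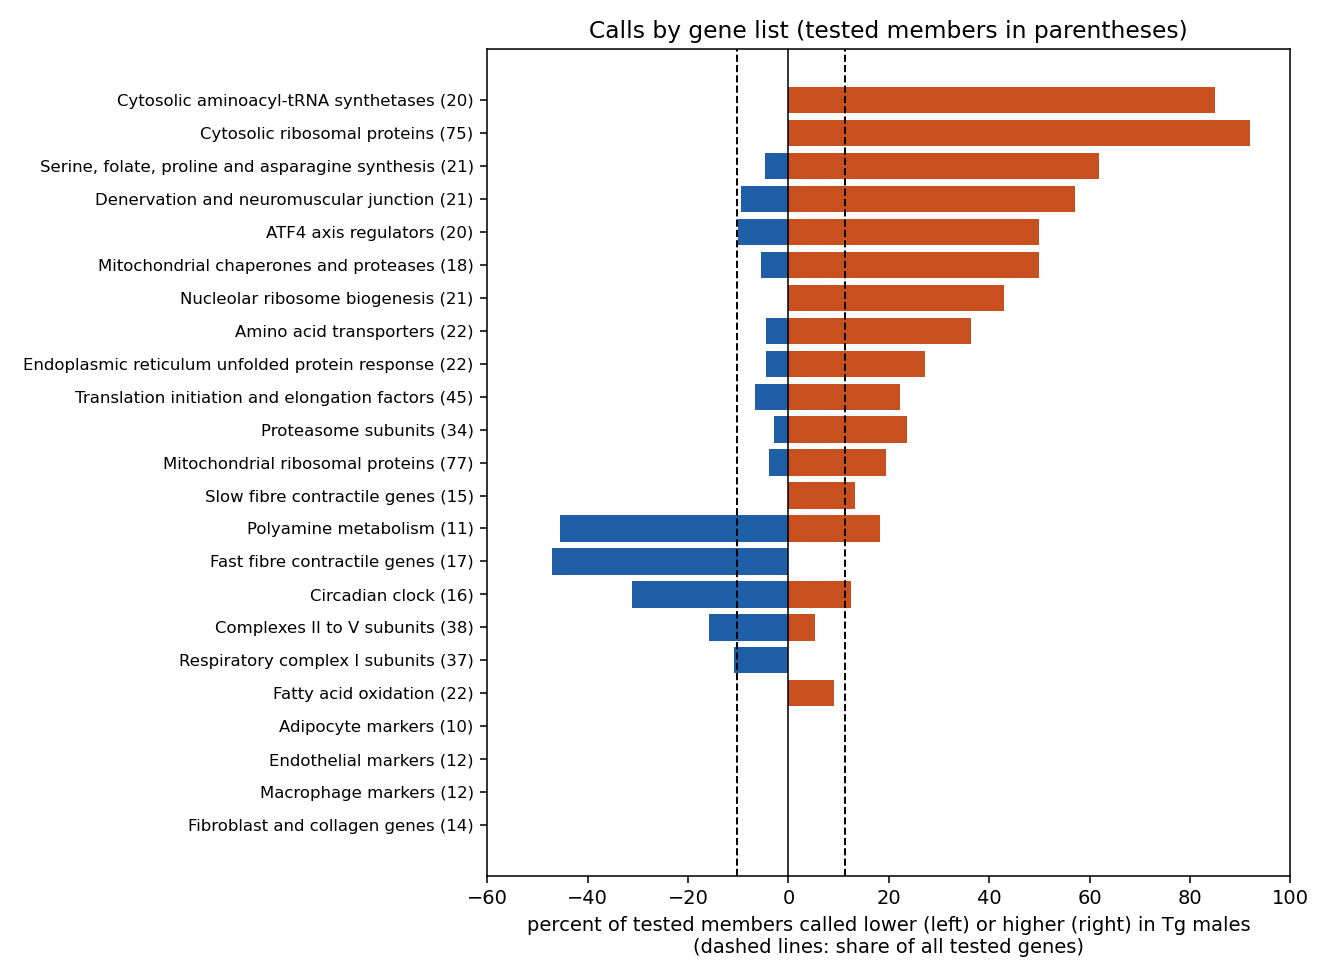
Percent of the tested members of 23 gene lists that were called higher (orange, to the right) or lower (blue, to the left) in Tg males, with the number tested in parentheses. Dashed lines mark the shares over all tested genes, 11.2% higher and 10.3% lower; cytosolic ribosomal proteins (69 of 75) and aminoacyl-tRNA synthetases (17 of 20) reach furthest to the right.

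Because 3 of 4 Tg libraries but 1 of 4 WT libraries were rich in adipocyte markers, the genotype effect was also read within each kind of library, an alternative chosen after seeing the data. The 4 libraries above 300 CPM compare WT 1 with Tg 1, Tg 2 and Tg 3, and the 4 below it compare WT 2, WT 3 and WT 4 with Tg 4, so in each the lone library is assumed to vary like the others. Of 456 called genes with at least a 2-fold change, 454 had a value in both comparisons, and all 454 kept their sign in both, as a gene called on all 8 libraries can hardly do otherwise. At least a 2-fold change in the same direction was seen for 381 of the 456 among the rich libraries and for 396 among the poor ones. Mthfd2 differed by 6.16 among the rich and by 6.198 among the poor libraries on the log2 scale, Atf5 by 3.24 and 3.33, Gars by 1.69 and 1.82, and Amd1 by -2.47 and -2.38. Psat1 (3.68 and 6.34) and Asns (3.71 and 6.22) differed more in size, with WT 1 as the only WT library among the rich ones, and so did Actc1 (4.33 and 1.28).

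**Figure D5:**
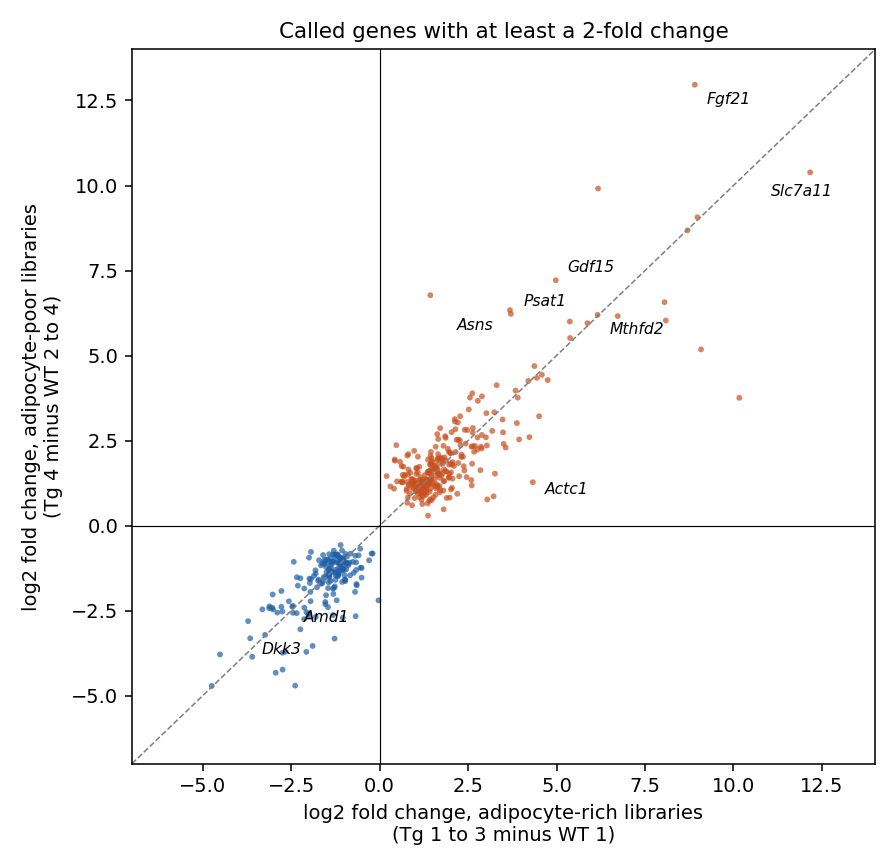
Log2 fold change between genotypes in the 4 libraries rich in adipocyte markers (horizontal) against that in the 4 poor libraries (vertical) for the called genes with at least a 2-fold change that have both values, higher in orange and lower in blue. The dashed line marks equal values; all 454 genes lie in the quadrants where both signs are the same.

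With the kind of library as a block, 2442 genes were called (18.4%), and 2066 of the 2871 main calls (72.0%) were among them, as were 412 of the 456 with at least a 2-fold change. Actc1, Fgfr4, Phkg1 and Myoz2 lost their call there (adjusted p = 0.0899, 0.0671, 0.0533 and 0.0539), as did Trim63 and Smox (adjusted p = 0.0795 and 0.0784). Under this block 7 of 10 adipocyte markers were called lower in Tg, with a median of -1.90 against -0.44 without it. The block was set from the sum of these same markers, so their values under it are no test of a genotype effect on fat RNA. Cytosolic ribosomal proteins had 59 of 75 higher and 0 lower, synthetases 14 of 20 and 0, and mitochondrial ribosomal proteins 8 and 4 of 77.

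Fat and slow-fibre RNA were then entered as covariates, the mean log2 CPM of each marker list per library. With the adipocyte covariate 2959 genes were called (22.2%), holding 95.1% of the main calls. With the slow-fibre covariate 1888 genes were called (14.2%), holding 56.9%, and with both 1963 (14.8%), holding 57.3%. No gene called in the main comparison changed its sign in any of these fits. The covariate of slow-fibre genes was itself higher in Tg, with all 4 Tg libraries above WT 1, WT 3 and WT 4, and how far genotype and slow-fibre RNA act separately on these genes cannot be told apart in 8 libraries. With predicted genes and clones left aside, 2567 called genes had a mean log2 CPM of at least 1. Of these, 104 were called in none of the 3 fits. Those with the largest changes were Ccn3, Tppp3 and Iigp1 (lower, -0.82, -0.79 and -0.64) and Mn1, Pole and Clcn2 (higher, 0.74, 0.59 and 0.54). Each of these 6 also lost its call in 5 to 7 of the 8 fits that left out 1 library. At a mean log2 CPM of at least 6, 447 of the 2567 genes were called in all 3 covariate fits and all 8 fits without 1 library. The largest changes among them were in Atf5, Actc1, Amd1, Amd2, Hspb7 and Cyb5r1.

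The lists moved unevenly with the covariates. With both covariates, 10 of 20 ATF4 axis genes, 14 of 21 synthesis genes, 8 of 22 carriers, 14 of 20 cytosolic synthetases and 62 of 75 ribosomal proteins were called higher. Mitochondrial chaperones and proteases went from 9 to 5 called higher of 18, import genes from 4 higher and 2 lower to 1 and 0 of 26, and denervation and junction genes from 12 to 8 higher of 21. Fast-fibre genes went from 8 to 4 called lower, glycolysis and glycogen genes from 4 to 1, proteasome subunits from 8 to 3 called higher and mitochondrial ribosomal proteins from 15 to 2. Fatty acid oxidation went from 2 higher and 0 lower to 1 and 7 of 22, complexes II to V from 2 and 6 to 1 and 10 of 38, and fibroblast genes from 0 to 5 higher of 14. With the slow-fibre covariate alone, Hspb1, Timm8a1, Gabarapl1, Ndufc1, Ndufv3, Phkg1, Egr2, Mag and Fgfr4 among the genes named here were no longer called (adjusted p = 0.0688, 0.0991, 0.0829, 0.0643, 0.11, 0.0975, 0.0834, 0.104 and 0.139), nor were Myoz2, Odf3l2, Smox and Trim63 (adjusted p = 0.0604, 0.161, 0.0815 and 0.21). Myoz2 is itself on the slow-fibre list that makes up the covariate, so its lost call follows in part from how the covariate was made.

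In the 8 fits that left out 1 library, 9 to 11 ATF4 axis genes, 13 to 14 synthesis genes, 8 to 9 carriers, 14 to 16 cytosolic synthetases, 58 to 70 cytosolic ribosomal proteins and 10 to 12 denervation genes were called higher. Other lists depended more on single libraries. Redox genes called higher went from 8 to 4 or 5 without WT 1, WT 2, WT 4, Tg 3 or Tg 4, and endoplasmic reticulum genes from 6 to 3 without WT 2, WT 4, Tg 1 or Tg 4. Mitochondrial ribosomal proteins called higher went from 15 to between 5 and 8 without any WT library or Tg 1. For proteasome subunits the number fell from 8 to between 2 and 5 without any library other than Tg 2. Autophagy genes called lower went from 4 to 1 or 2 without any library other than WT 1 or Tg 2. Glycolysis and glycogen genes called lower went from 4 to 2 without WT 2, WT 3, WT 4, Tg 1 or Tg 4 and to 7 without Tg 2. Polyamine genes called lower went from 5 to 3 without WT 4, Tg 1 or Tg 3, and complexes II to V from 6 to 3 without WT 2.

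The male effect was compared with that in females in 1 fit of all 16 libraries, as the difference between the genotype effects of the sexes. Of 13666 genes tested 1 was called (0.00732%), and 1015 had an unadjusted p under 0.05. The called gene was Itpr1, a calcium release channel of the endoplasmic reticulum, at 65.9 to 73.3 CPM in WT males, 21.02 to 25.4 in Tg males, 38.1 to 41.7 in WT females and 21.9 to 29.5 in Tg females. Its genotype effect was -1.61 in males and -0.69 in females on the log2 scale, a difference of -0.92 (SE 0.13, adjusted p = 0.0272). The Tg levels of the sexes overlapped and the WT levels did not. The call was lost without any 1 of WT male 2, WT male 3, WT male 4, Tg male 1, Tg male 2, Tg male 3 or Tg female 3 (adjusted p between 0.0568 and 0.112), and DESeq2 called 87 genes. For Amd1 the difference was -1.14 (SE 0.19, adjusted p = 0.0572), with -2.46 in males and -1.32 in females, and it was not called. Amd1 was called with DESeq2 (adjusted p = 2.46e-05), the slow-fibre covariate (0.000925), the adipocyte covariate (0.0483) and no filter (0.0499), and not by limma-voom (0.0588). In fits that left out 1 library its adjusted p was 0.0292 to 0.164, and it was called without WT female 3 or Tg male 4.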

How the data were processed

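The authors deposited 1 table per library with values per gene symbol, taken as estimated counts from their form (94.4% within 0.01 of a whole number, different totals). TopHat2, Bowtie2, bcl2fastq, cutadapt 1.2.1 and build mm10 are listed in the submitters' processing notes, without roles; the counting program is unknown here. Values were rounded, which moved none by over 0.5. For the 8 males, edgeR 4.0.16 (R 4.3.3) used filterByExpr (minimum count 10, total 15), TMM scaling, robust quasi-likelihood F tests and Benjamini-Hochberg adjustment, after a test on simulated data. SE is the log2 fold change over the square root of F. The labels give 4 muscles per sex and genotype, taken as separate mice. Alternatives used limma 3.58.1 and DESeq2 1.42.0, marker covariates, blocks and subsets of libraries.

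Genes named are the 14 largest changes each way that do not overlap between genotypes, at a mean log2 CPM of at least 1, up to 4 called members per list, and genes lost or kept under the covariates (6 each). Symbols of predicted genes, clones and loci were left out of the rankings by size and of the covariate counts drawn from them. Genes whose call a single library ends were mostly left out, after their values were seen. The 47 lists and the members were chosen with earlier results of these data known. Positions come from GENCODE M21 (98.9% of tested symbols matched). Of the genes named, 36 share exon bases with another gene, 33 on the opposite strand, such as Atf5, Chchd10, Cox6a2, Itga7, Mrpl18 and Phkg1, so their values may hold its reads. On the same strand, Igf2 shares 3284 exon bases with Gm49394 and Gbp10 1792 with Gm43302, and Igtp overlaps Irgm2 and Dnaja3 overlaps Vasn, so these values are uncertain too. Some results that the rule names are not reported here.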

Additional observations from a re-analysis of the deposited data

Results flagged for a closer look

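Levels of the named genes were screened for a single library far from the other 3 of its genotype, by Dixon's test at the 95% level. Of 274 groups of 4 values 17 stood out, a share close to the 1 in 20 that chance gives. The flags below are therefore descriptions of values only. WT 1 accounted for 9 of the groups that stood out. It held 2289 CPM over the adipocyte markers against 38.9 to 151 in the other WT libraries. Adipoq, itself part of that sum, was at 326 against 4.52 to 19.2 CPM. WT 1 was also highest for the serine synthesis genes Phgdh (24.9 against 1.83 to 2.16 CPM) and Psat1 (11.3 against 1.49 to 2.25 CPM), for Asns (6.49 against 1.26 to 1.36 CPM), Sesn2 (4.60 against 2.80 to 2.97 CPM), Slc25a5 (57.3 against 28.5 to 31.4 CPM) and Sbk2 (125 against 63.5 to 73.0 CPM). Fgf21 had its only WT count in WT 1 (0.0451 CPM), and this test flags any single count where the other values are 0. With the adipocyte covariate the genotype difference of Phgdh was 2.33 (edgeR, adjusted p = 0.016), against 1.94 (adjusted p = 0.216) without it.

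The other libraries stood out singly. WT 2 was highest for the slow myosin Myh7 (7.51 against 0.381 to 0.875 CPM), lowest for Me1 (424 against 477 to 486 CPM) and held the only WT count of Slc7a11 (0.0481 CPM). That single count was flagged in the same way as the one of Fgf21. Tg 2 was lowest for Ern1 (22.3 against 30.2 to 31.4 CPM) and Oaz1 (73.7 against 109.8 to 113 CPM), and Tg 3 was highest for Myc (14.6 against 11.7 to 12.1 CPM). Tg 4, the Tg library poor in adipocyte markers, was highest for Psat1 (165 against 144 to 146 CPM) and Soat2 (12.1 against 9.22 to 9.63 CPM).

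The genotype effect on Itpr1 differed between the sexes by -0.92 on the log2 scale (edgeR, adjusted p = 0.0272). It was the only call among 13666 tested genes. Several edgeR fits that left out 1 library lost it (adjusted p between 0.0568 and 0.112). The WT males lay above the WT females, and the Tg levels overlapped.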

How the results depend on the processing

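None of the 2871 called genes changed sign under any alternative that tested it; a call on 8 libraries nearly fixes the sign in fits of part of them, so this is no measure of stability. The main numbers of 1496 higher and 1375 lower went to 930 and 958 with the slow-fibre covariate, to 979 and 984 with both covariates, to 207 and 387 in the 4 libraries rich in adipocyte markers, and to 540 and 513 in the 4 poor ones. Fits that left out 1 library gave 1020 to 1475 higher and 1012 to 1517 lower. Leaving out libraries with over 3 times the median adipocyte level is the fit without WT 1 (1257 and 1517). Without a filter on low counts 1412 and 1254 were called, with DESeq2's size factors 1256 and 1568, with DESeq2's test 1398 and 1762, with limma-voom 1492 and 1370, and in a fit of all 16 libraries 1346 and 1146. Of 130 called genes named here, 120 kept their call in every fit without 1 library, 111 in every alternative on all 8 libraries apart from the block, and 118 with the block. Genes whose call a single library ends were mostly left out of the naming, so the 120 follows in part from that choice. Over all genes, each fit without 1 library kept 69.3 to 87.0% of the 2871 main calls. The 1 gene whose effect differed between the sexes became 87 with DESeq2, 8 without the filter, 8 with the adipocyte covariate, 3 with the slow-fibre covariate, and 0 to 23 without 1 library, the highest without Tg male 4. The cause was not tested, though the subsets of 4 libraries hold fewer samples. No paired analysis was possible because the replicate numbers follow accession order and name no littermates. Groups of 4 limit precision for genes of few counts: 3 counts are 0.110 to 0.149 CPM.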
